A study of Mus musculus with 4 samples.

Results

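The genes described here are 10 members of the Notch pathway in mouse mammary epithelium, taken from the 27998 genes listed in each count table. They were chosen by symbol and comprise 4 receptors (Notch1, Notch2, Notch3 and Notch4), 3 ligands (Jag1, Jag2 and Dll1) and 3 transcriptional targets (Hey1, Heyl and Hes1). The questions were which epithelial lineage held each class of gene, and whether levels differed with developmental stage or phase of the estrus cycle. RNA of single cells was counted with the droplet-based 10X Genomics Chromium platform, in total epithelium of FVB/NJ mice with no treatment. Mice of 1 library were pubertal, aged 5 weeks, and those of the other 2 libraries were adults of 10 weeks, staged to estrus and to diestrus. Per the methods of the study, the cells were sorted as Lin-CD24+, glands of a pair of mice were pooled for each adult library and those of more mice for puberty, so no value can be assigned to an animal.

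The Notch pathway carries signals between neighbouring cells. A ligand of the Jagged or Delta-like type on one cell binds a receptor on the next, the receptor is cleaved by ADAM proteases and by γ-secretase, and its intracellular domain enters the nucleus. There it joins the DNA-binding protein RBPJ and co-activators of the Mastermind-like family and switches on genes of the Hes and Hey families, which are themselves repressors. In the mammary gland, basal cells form the outer, contractile layer, and luminal progenitor (LP) and mature luminal (ML) cells form the inner layer. Notch signalling is known there for its role in luminal fate.

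The puberty library held 5428 barcodes and 25365324 counts, estrus 2729 barcodes and 10962454 counts, and diestrus 2439 barcodes and 11868593 counts. A second pubertal table shared 5387 barcodes with the first and was used as an alternative, not as a replicate; no other pair of tables shared more than 24. Cells were assigned to lineages with genes outside the pathway, which gave 1138, 1310 and 1049 basal cells, 1803, 488 and 583 LP cells, and 2189, 796 and 685 ML cells in puberty, estrus and diestrus, respectively. The summed level of 8 basal markers was 21714 to 31095 counts per 1000000 counts (CPM) in basal cells and at most 279.9 CPM in luminal cells. The 8 LP markers summed to 19325 to 53206 CPM in LP cells and at most 798.6 CPM elsewhere, and the 8 ML markers to 6377 to 8990 CPM in ML cells and at most 386.4 CPM elsewhere. All 8 markers of each list had a count in every lineage and library, so presence of a count did not tell lineages apart. The same markers chose the cells from which the signatures were derived, so their levels are not an independent check of the assignment.

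The end of Hes1 codes for the tetrapeptide tryptophan-arginine-proline-tryptophan, through which Hes proteins recruit co-repressors of the Groucho/TLE family. The stretch marked in Heyl codes for a different tetrapeptide, tyrosine-histidine-serine-tryptophan. It was picked as the last stretch with tryptophan or tyrosine at its start and tryptophan at its end, and its function was not tested. Both genes are shown because they are read as outputs of the pathway. The last 60 coding bases before the stop codon of each are given, 5′ to 3′, from the GENCODE M21 transcripts on GRCm38, with the 12 bases of the tetrapeptide in capitals.
Hes1, chr16:30067366-30067425, plus strand: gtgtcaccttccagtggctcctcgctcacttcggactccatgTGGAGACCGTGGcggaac
Heyl, chr4:123246568-123246627, plus strand: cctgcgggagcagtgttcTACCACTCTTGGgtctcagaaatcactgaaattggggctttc
The capitals of Heyl and Hes1 were equal at 5 of 12 positions. The tetrapeptide was followed by 2 codons in Hes1 and 10 in Heyl. The full target genes lie at chr16:30064384-30067796 (Hes1, plus strand), chr3:8663359-8667256 (Hey1, minus strand) and chr4:123233556-123249875 (Heyl, plus strand).

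Among the ligands, Dll1 was the gene of the basal lineage. Dll1, a Delta-like ligand at chr17:15367354-15376872 on the minus strand, reached 121.3 CPM in basal cells of puberty, 166.8 CPM in estrus and 67.5 CPM in diestrus. In LP cells it was at 2.52, 2.58 and 2.73 CPM in the same order, and in ML cells at 0.273, 0.668 and 0.564 CPM. Basal cells were above both luminal lineages in all 3 libraries, with no overlap. These levels are counts summed over the cells of a lineage and library, scaled to CPM with edgeR's trimmed mean of M values (TMM). In edgeR's quasi-likelihood test with a block for library and Benjamini-Hochberg adjustment over 11148 genes, Dll1 was lower in LP than in basal cells by a log2 fold change of -5.42 (SE 0.24, adjusted p = 2.64e-08, n = 3 libraries). ML cells were lower than basal cells by -8.04 (SE 0.29, edgeR adjusted p = 6.01e-09).

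The contrast of LP with ML cells also passed the threshold of 0.01 for Dll1, with a log2 fold change of 2.62 (SE 0.48, edgeR adjusted p = 0.00123). It rests on 16, 5 and 8 counts in LP cells and 3, 3 and 2 counts in ML cells. Whether so few counts came from the cells themselves was not tested. Without the puberty library the same contrast had an adjusted p of 0.0295.

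Jag2 was also a basal gene, with fewer counts. Jag2, a Jagged ligand at chr12:112907819-112929776 on the minus strand, gave 31, 28 and 22 counts in basal cells of puberty, estrus and diestrus, or 7.57, 5.77 and 4.40 CPM. No count of it was found in LP cells of any library, and ML cells held 9 counts in puberty and 0 in both adult libraries. Taking 3 counts as the floor over the 3 LP samples together, Jag2 was at least 21.7-fold higher in basal than in LP cells. The ML contrast with basal cells was -3.96 (SE 0.63, edgeR adjusted p = 0.000623). DESeq2's Wald test gave adjusted p-values of 0.0518 for LP and 0.115 for ML cells against basal cells, so the calls for Jag2 depend on the tool.

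Jag1 differed from Dll1 and Jag2 in that ML cells held it too. Jag1, at chr2:137081456-137116644 on the minus strand, was at 6.59, 4.33 and 3.80 CPM in basal cells and at 4.36, 3.12 and 2.54 CPM in ML cells of puberty, estrus and diestrus. These ranges overlapped, and the contrast of ML with basal cells did not pass the threshold (log2 fold change -0.56, SE 0.34, edgeR adjusted p = 0.181). LP cells held 6, 0 and 1 counts. Jag1 was lower in LP than in basal cells by -3.14 (SE 0.50, edgeR adjusted p = 0.000368) and lower than in ML cells by -2.58 (SE 0.51, edgeR adjusted p = 0.00208). Without puberty, estrus or diestrus in turn, the LP to ML contrast had adjusted p-values of 0.0208, 0.0119 and 0.0153.

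Of the receptors, Notch1 and Notch3 had the reverse pattern, with higher levels in luminal than in basal cells. Notch1, at chr2:26457903-26516663 on the minus strand, was highest in LP cells, with 52.2 CPM in puberty, 52.2 CPM in estrus and 30.8 CPM in diestrus. ML cells followed with 16.5, 12.0 and 12.1 CPM, and basal cells were lowest with 9.76, 4.95 and 5.01 CPM. The 3 lineages did not overlap. The log2 fold change was 2.78 for LP against basal cells (SE 0.22, edgeR adjusted p = 2.07e-06) and 1.72 for LP against ML cells (SE 0.20, edgeR adjusted p = 5.12e-05). For ML against basal cells it was 1.06 (SE 0.23, edgeR adjusted p = 0.00226), and the adjusted p rose to 0.0102 without estrus and to 0.0150 without diestrus. Of the last 500 bases of the Notch1 transcript, where this assay counts, 82.8% are overlapped by gene models on the opposite strand (0610009E02Rik and Gm13568). Whether the counting used strand is not given in the sources used here, and whether any reads from those transcripts were counted as Notch1 was not tested.

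Notch3 was higher in both luminal lineages than in basal cells. Notch3, at chr17:32120820-32166852 on the minus strand, was at 20.2, 15.0 and 13.0 CPM in LP cells and at 20.3, 21.2 and 20.3 CPM in ML cells of puberty, estrus and diestrus. Basal cells had 0.976, 2.47 and 1.60 CPM, from 4, 12 and 8 counts. LP cells were higher than basal cells by 3.23 on the log2 scale (SE 0.31, edgeR adjusted p = 9.62e-06), and ML cells by 3.56 (SE 0.30, edgeR adjusted p = 2.16e-06). The LP to ML difference of -0.32 (SE 0.22) did not pass the threshold (edgeR adjusted p = 0.284), although LP was the lower in 3 of 3 libraries and the ranges of the 2 lineages did not overlap. Notch1 and Notch3 therefore had different lineage orders among luminal cells, the first with a called difference between LP and ML cells and the second without one; the difference between the genes was not itself tested.

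Notch2 and Notch4 were too low for a test. Notch2 gave 1 to 9 counts per lineage and library, and Notch4 gave 2 to 12. Notch4 was highest in basal cells of diestrus, with 10 counts. The lineages overlapped for Notch4, while Notch2 was highest in LP cells in all 3 libraries, at 1.42, 2.07 and 0.683 CPM from 9, 4 and 2 counts. Notch4 is known from endothelial cells. Of 5 endothelial markers, 2 to 4 had a count in each lineage and library, with a summed level of 7.61 to 23.5 CPM, and their part in the Notch4 counts was not tested.

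**Figure D1:**
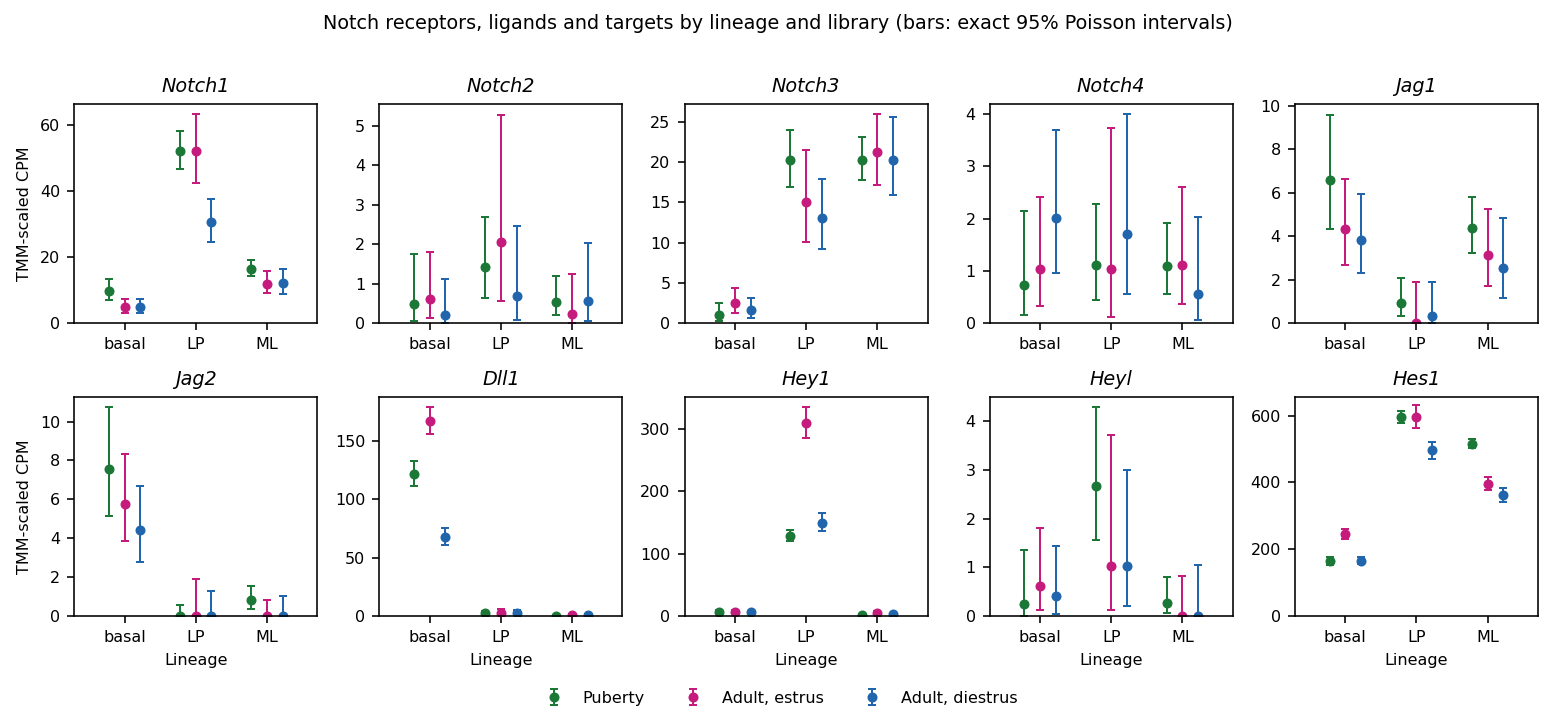
Level of each of the 10 genes (vertical axis, TMM-scaled CPM, a separate linear scale for each gene) in basal, LP and ML cells, with 1 point per library and exact 95% Poisson intervals that cover counting error only. Dll1 and Jag2 are high in basal cells, Notch1 and Hey1 in LP cells, and Notch3 and Hes1 in both luminal lineages.

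Of the targets, Hey1 was held by LP cells. Its level there was 128.4 CPM in puberty, 309.4 CPM in estrus and 150.0 CPM in diestrus, against 5.86, 6.60 and 6.01 CPM in basal cells and 1.91, 4.68 and 2.82 CPM in ML cells. LP cells were above both other lineages in all 3 libraries, with no overlap. The log2 fold change was 4.92 against basal cells (SE 0.21, edgeR adjusted p = 1.77e-08) and 5.97 against ML cells (SE 0.22, edgeR adjusted p = 1.86e-08). ML cells were also lower than basal cells, by -1.05 (SE 0.28, edgeR adjusted p = 0.00805). This last call rests on 10 to 32 counts per lineage and library and was lost without puberty (adjusted p = 0.117) or without diestrus (adjusted p = 0.0533).

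Hes1 was present in all lineages and higher in the luminal ones. In LP cells it was at 595.9, 597.2 and 496.2 CPM in puberty, estrus and diestrus, in ML cells at 516.4, 396.4 and 361.7 CPM, and in basal cells at 164.7, 245.0 and 165.8 CPM. LP and ML cells were above basal cells in every library, while LP and ML cells overlapped. The log2 fold change against basal cells was 1.56 in LP (SE 0.15, edgeR adjusted p = 1.21e-05) and 1.15 in ML cells (SE 0.15, edgeR adjusted p = 7.73e-05). The LP to ML difference of 0.41 (SE 0.15) missed the threshold (edgeR adjusted p = 0.0515). In puberty its direction depended on scaling: without TMM factors Hes1 was at 473.5 CPM in LP and 490.7 CPM in ML cells. Heyl, with 0 to 17 counts, was too low for a test. It was highest in LP cells in all 3 libraries, at 2.68, 1.03 and 1.03 CPM from 17, 2 and 3 counts.

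In all, 7 of the 10 genes passed edgeR's filter on low counts, and Notch2, Notch4 and Heyl did not. Between LP and basal cells, 4 of the 7 were higher in LP cells, where 16.8% of all genes tested were, and 3 were higher in basal cells, where 17.2% were. Between ML and basal cells, 3 were higher in ML cells (20.3% of all genes) and 3 in basal cells (23.5%), and Jag1 was not called. Between LP and ML cells, 3 were higher in LP cells (15.2% of all genes) and 1 in ML cells (12.8%), and Notch3, Jag2 and Hes1 were not called. The lineages were compared within libraries of pooled mice, and the block took up differences between libraries. The p-values therefore rest on how far a lineage difference varied among 3 libraries of different stages.

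**Figure D2:**
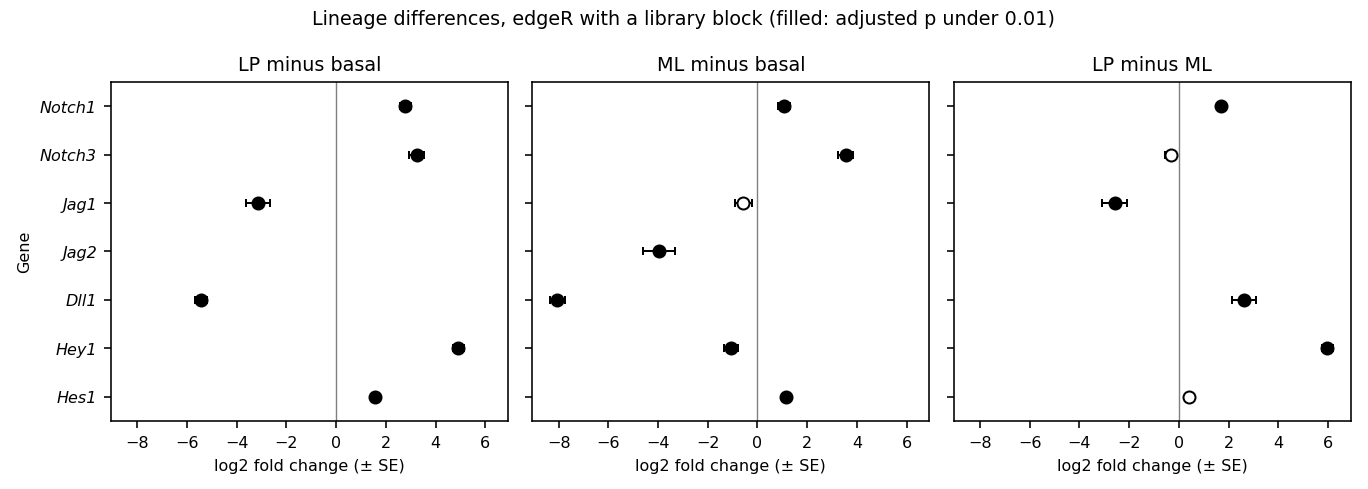
Log2 fold change between lineages (horizontal axis) for the 7 genes tested, with the standard error from edgeR as bars and filled points where the adjusted p was under 0.01. Against basal cells, ligands lie on the basal side and receptors on the luminal side, and Hey1 lies furthest toward LP cells, at 4.92 against basal and 5.97 against ML cells; the contrasts of Jag2 with LP cells, where it had no count, are not drawn.

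The share of cells with at least 1 count was taken after cells had been thinned to 2000 counts, to remove the difference in depth between lineages. Cells under 2000 counts were left out, which removed more basal than luminal cells. In puberty, estrus and diestrus these were 266, 358 and 194 basal cells, 159, 79 and 66 LP cells, and 139, 65 and 62 ML cells. For Dll1, Notch1, Notch3 and Hey1 the lineages had the same order in shares as in CPM in every library. For Hes1 in puberty the share was 45.6% in LP and 49.3% in ML cells, the reverse of the order in TMM-scaled CPM. For Jag1 in estrus it was 0.315% in basal and 0.958% in ML cells, again the reverse, with overlapping Wilson intervals. Median counts per cell before thinning were 2543 to 3389 for basal cells, 3249 to 4164 for LP cells and 4193 to 4705 for ML cells. Dll1 was counted in 20.8% of 872 basal cells of puberty (Wilson 95% interval 18.2 to 23.6), 27.3% of 952 of estrus (24.6 to 30.2) and 11.2% of 855 of diestrus (9.28 to 13.5). Without thinning these shares were 27.0%, 35.8% and 23.6%. In ML cells, which serve as the background for this ligand, it was counted in 0.146% and 0.274% of cells of puberty and estrus, and in 0 of 623 cells of diestrus. A floor of 3 cells with a count puts that share at up to 0.482%, and the Wilson upper bound is 0.613%. Its share in LP cells was 0.580% to 0.978%.

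Hey1 was counted in 15.3% of 1644 thinned LP cells of puberty (Wilson 95% interval 13.7 to 17.2), 35.5% of 409 of estrus (31.0 to 40.2) and 22.2% of 517 of diestrus (18.9 to 26.0). Without thinning the shares were 24.8%, 48.4% and 31.6%. Its share in ML cells, the background here, was 0.195% to 0.821%. Most LP cells thus gave no Hey1 count at this depth, which does not show that they lack the transcript. Notch1 was counted in 5.80% to 8.31% of LP cells, 2.05% to 2.88% of ML cells and 0.803% to 1.05% of basal cells. For Notch3 the shares were 1.96% to 3.10% among LP cells, 3.76% to 5.62% among ML cells and 0.115% to 0.630% among basal cells, with no overlap. Hes1 was counted in 42.7% to 48.4% of LP cells, 40.3% to 49.3% of ML cells and 19.6% to 29.9% of basal cells.

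**Figure D3:**
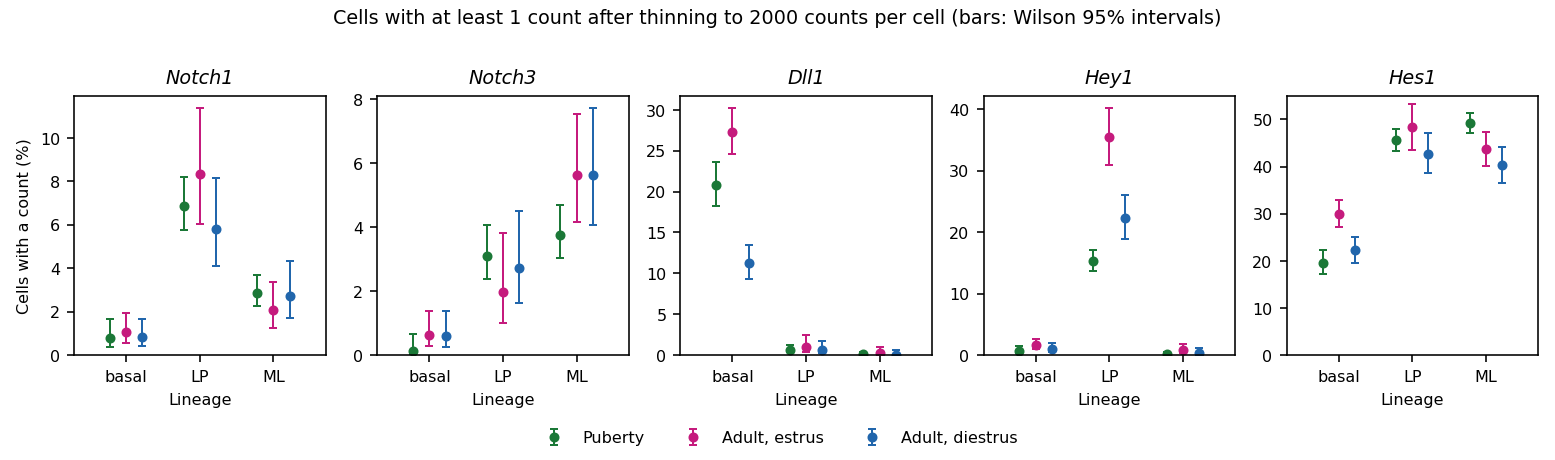
Share of cells with at least 1 count (vertical axis, percent) for 5 genes by lineage and library, with Wilson 95% intervals that cover counting error only. Cells under 2000 counts were left out and the others were thinned to 2000 counts. The basal share for Dll1 and the LP share for Hey1 are highest in estrus, at 27.3% and 35.5%.

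Cells that lay between LP and ML cells in their signature scores, 190, 85 and 74 in puberty, estrus and diestrus, were kept out of the contrasts. Without TMM factors, Hey1 was at 45.7, 163.0 and 57.2 CPM in these intermediate cells, between the 102.0, 298.1 and 150.9 CPM of LP cells and the 1.81, 5.46 and 2.87 CPM of ML cells. Notch1 was at 34.5, 28.5 and 30.6 CPM there. Whether intermediate cells were single cells was not tested.

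Dll1 in basal cells, and Hey1 and Hes1 in LP cells, were lower in cells in the cell cycle. In basal cells with counts for at least 3 of 10 cell cycle genes, Dll1 was at 49.3, 87.7 and 41.4 CPM without TMM factors, in puberty, estrus and diestrus. In the remaining basal cells it was at 136.4, 197.8 and 86.1 CPM, and the exact 95% Poisson intervals of the 2 classes did not overlap in any library. Hey1 in cycling LP cells was at 66.6, 128.9 and 44.8 CPM, against 106.8, 319.4 and 188.3 CPM in the remaining LP cells, again without overlap of the intervals. Hes1 in cycling LP cells was at 226.1, 422.2 and 391.5 CPM, against 506.8, 594.6 and 537.1 CPM in the remaining LP cells, also without overlap. In basal cells of puberty and estrus, Hes1 was at 119.5 and 175.4 CPM in cycling and at 173.3 and 283.5 CPM in the remaining cells, without overlap. In basal cells of diestrus, by contrast, Hes1 was at 191.7 CPM in cycling and 166.8 CPM in the remaining cells, with overlapping intervals. Notch1 in LP cells was at 38.0, 40.0 and 30.3 CPM in cycling and at 41.9, 51.6 and 31.2 CPM in the remaining cells, with overlap in every library. Other pairs went the other way. Notch1 in basal cells was at 19.5, 14.0 and 6.37 CPM in cycling and at 7.43, 4.17 and 4.75 CPM in the remaining cells. Notch3 in ML cells was at 27.1, 27.9 and 23.2 CPM against 17.8, 24.1 and 20.1 CPM. For both, the intervals overlapped in every library. Cycling cells numbered 110, 63 and 190 among basal cells and 121, 21 and 82 among LP cells of puberty, estrus and diestrus. The intervals cover counting error only and leave out the spread between cells. The share of all genes that separated in this way was not determined, so the separation is not particular to these genes on this evidence. With 3 libraries no test was made. Cycling basal cells had a mean of 7002 to 9052 counts and the others 3077 to 3679, and the part of depth was not tested.

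Stage and estrus phase were compared within a lineage, with 1 library for each, so the ratios have no replicate check, carry no p-value and cannot be told apart from differences between libraries. A ratio counted once it reached 2-fold, for genes whose level was 10 CPM or more in either library, and intervals are exact 95% intervals for counting error only. In basal cells, 2 of the 10 genes had 10 CPM, and 1 of them, Dll1, passed 2-fold between diestrus and estrus, where 11.0% of all genes did. In LP cells 4 had 10 CPM and 1, Hey1, passed, where 12.8% of all genes did. In ML cells 3 had 10 CPM and none passed, where 7.32% of all genes did. Between puberty and both adult libraries no member passed in any lineage, where 3.73% of all genes in basal cells did, and 2.75% and 2.88% in LP and ML cells.

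The ligand Dll1 was lower in diestrus than in estrus in basal cells by a log2 ratio of -1.31 (95% interval -1.49 to -1.12), from 337 and 809 counts. Puberty lay between the adult libraries, with log2 ratios of -0.46 (-0.62 to -0.30) to estrus and 0.85 (0.64 to 1.05) to diestrus. Cycling cells made up 9.67%, 4.81% and 18.1% of basal cells in puberty, estrus and diestrus. With these cells left out, the ratio of diestrus to estrus was -1.13.

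The target Hey1 was highest in estrus among LP cells. Its log2 ratio was -1.04 (95% interval -1.23 to -0.86) for diestrus to estrus, from 439 and 599 counts, and -1.27 (-1.42 to -1.11) for puberty to estrus, from 814 and 599 counts. Puberty and diestrus differed by -0.22 (-0.39 to -0.05). Without cycling cells the ratio of diestrus to estrus was -0.79, under 2-fold, and that of puberty to estrus was -1.28.

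Immediate early and heat shock genes, which are known to respond to cell dissociation, were also highest in estrus. The summed level of 10 of them, among which were Fos, Jun and Hspa1a, was 6121, 22850 and 12448 CPM in basal cells of puberty, estrus and diestrus, and 13185, 30583 and 16693 CPM in LP cells. All 10 had counts in every lineage and library. In ML cells, where no member of at least 10 CPM passed 2-fold, their sum was 8770, 19748 and 14859 CPM. Estrus was thus highest in every lineage, as for Dll1 in basal and Hey1 in LP cells. Puberty had the lowest sum in every lineage, whereas Dll1 in basal cells was lowest in diestrus. The part of these genes in the stage ratios was not tested. Hey1 had the same order of libraries in basal as in LP cells, at 5.86, 6.60 and 6.01 CPM, but in basal cells the intervals overlapped. In ML cells, where Hey1 was under 10 CPM, the order was the same at 1.91, 4.68 and 2.82 CPM. The log2 ratio of puberty to estrus there was -1.29 (95% interval -2.24 to -0.35). These ML levels rest on 21, 21 and 10 counts in puberty, estrus and diestrus. Whether so few counts came from the ML cells themselves was not tested.

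No receptor passed 2-fold at 10 CPM or more in the first pubertal table. Notch1 in LP cells had a log2 ratio of -0.76 (95% interval -1.19 to -0.34) for diestrus to estrus, 0.00 (-0.32 to 0.34) for puberty to estrus and 0.76 (0.42 to 1.12) for puberty to diestrus. In basal cells Notch1 was at 9.76 CPM in puberty, just under the limit of 10 CPM, and at 4.95 and 5.01 CPM in the adult libraries, with log2 ratios of 0.98 (0.21 to 1.77) to estrus and 0.96 (0.21 to 1.75) to diestrus. In the second pubertal table it was at 10.97 CPM and then passed 2-fold against both adult libraries. Notch3 in LP cells had a log2 ratio of 0.64 (0.10 to 1.20) for puberty to diestrus. The ratios of puberty in LP cells depended on scaling. Without TMM factors, Notch3 there was at 16.0 CPM in puberty and 13.1 CPM in diestrus. Notch1 there was then at 41.5, 50.3 and 30.9 CPM in puberty, estrus and diestrus. In ML cells Notch3 differed by -0.06 (-0.52 to 0.40) between diestrus and estrus and by -0.06 (-0.42 to 0.30) between puberty and estrus.

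Hes1 stayed under 2-fold in all lineages and comparisons. Its widest ratio was -0.57 (95% interval -0.71 to -0.44) for puberty to estrus in basal cells. In ML cells the same comparison gave 0.38 (0.30 to 0.46) with TMM scaling and 0.08 without it. TMM scaling moved the median of all genes by 0.06 to 0.34 on the log2 scale between libraries, most for puberty against diestrus in LP cells, and the ratios above are given relative to it.

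**Figure D4:**
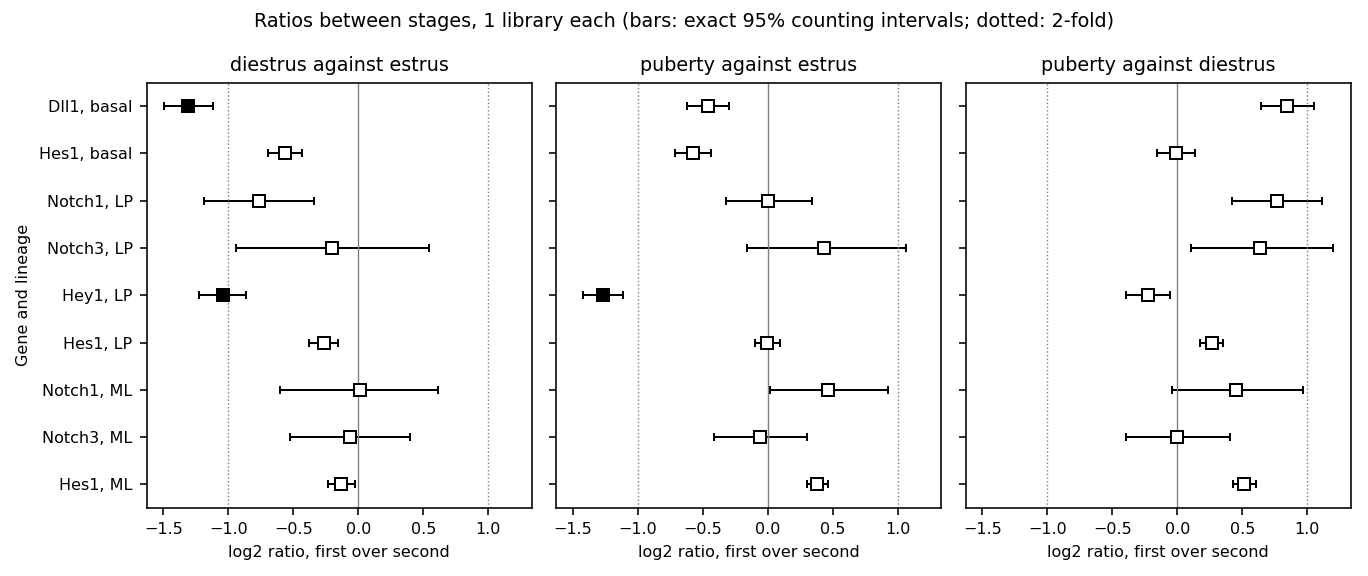
Log2 ratio between stages (horizontal axis, first over second) for the 9 pairs of gene and lineage with at least 10 CPM, with exact 95% intervals for counting error, dotted lines at 2-fold and filled points at or past 2-fold. Dll1 in basal cells at -1.31 and Hey1 in LP cells at -1.04 lie past 2-fold between diestrus and estrus.

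Other pathway genes were taken from a list of 41, of which 32 were tested and 19 were called in at least 1 contrast, as were 56.5% of all genes tested. Between LP and basal cells 5 of the 32 were higher in LP cells (16.8% of all genes tested) and 5 in basal cells (17.2%), with a median log2 fold change of 0.09 over the 32, against 0.01 over all genes tested. Between ML and basal cells 10 were higher in ML (20.3% of all genes) and 6 in basal cells (23.5%), with a median of -0.09 against -0.03. Between LP and ML cells 4 were higher in LP (15.2% of all genes) and 6 in ML cells (12.8%), with a median of 0.06 against 0.03. The other ligands on the list, Dll3 and Dll4, had 0 to 7 counts per lineage and library and were not tested, nor were Hes5, with at most 1 count, and Hey2, with at most 12.

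The feedback gene Nrarp and the Hes family gene Hes6 were both higher in LP than in basal cells. Nrarp, an inhibitor induced by Notch, was higher in LP than in basal cells by 1.82 on the log2 scale (SE 0.37, edgeR adjusted p = 0.00185) and higher than in ML cells by 2.43 (SE 0.37, edgeR adjusted p = 0.000396). Its level was 36.7 ± 10.9 CPM in LP, 11.2 ± 6.38 CPM in basal and 7.12 ± 1.93 CPM in ML cells (SD, n = 3 libraries), so it shared with Hey1 its highest level in LP cells. The Nrarp contrast of ML with basal cells was not called (-0.61, SE 0.40, edgeR adjusted p = 0.216), and the 2 lineages overlapped. Hes6 differed from both, being highest in ML cells, at 70.4 ± 12.1 CPM against 40.0 ± 5.63 CPM in LP and 14.6 ± 3.28 CPM in basal cells (SD, n = 3 libraries), with log2 fold changes against basal cells of 2.28 in ML (edgeR adjusted p = 1.25e-06) and 1.46 in LP cells (edgeR adjusted p = 7.10e-05).

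Lfng, Poglut1 and Numbl, which modify receptors or their turnover, were lower in LP than in basal cells. Lfng, a Fringe glycosyltransferase that alters the response of Notch to its ligands, was at 12.7 ± 3.78 CPM in basal and 0.888 ± 0.182 CPM in LP cells (SD, n = 3 libraries), and at 3.27 to 11.3 CPM in ML cells. It was lower in LP than in basal cells by -3.61 (SE 0.42, edgeR adjusted p = 3.81e-05) and lower than in ML cells by -2.69 (SE 0.44, edgeR adjusted p = 0.000638). Its contrast of ML with basal cells was not called (-0.92, SE 0.28, edgeR adjusted p = 0.0160), and these lineages overlapped. Poglut1, an O-glucosyltransferase of the receptors, was lower in LP than in basal cells by -1.90 (edgeR adjusted p = 5.26e-06). Pofut1, an O-fucosyltransferase of the receptors that was chosen here after its values were seen, was in contrast higher in ML than in basal cells by 0.91 (SE 0.24, edgeR adjusted p = 0.00834), and its LP to basal difference of 0.30 was not called (edgeR adjusted p = 0.398). Numbl, a relative of the Notch inhibitor Numb, was lower in LP (-3.02, edgeR adjusted p = 0.000476) and ML cells (-3.10, edgeR adjusted p = 0.000151) than in basal cells.

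Of the cleavage genes, Adam10, an ADAM protease that cuts the receptor, was at 70.6 ± 12.2 CPM in ML and 16.8 ± 3.05 CPM in LP cells (SD, n = 3 libraries), a log2 fold change of -2.12 (SE 0.20, edgeR adjusted p = 9.67e-06). Psen2, a catalytic subunit of γ-secretase, was higher in ML than in basal cells by 2.14 (SE 0.23, edgeR adjusted p = 1.34e-05). The co-activators of the nuclear complex split. Maml2 was higher in LP than in ML cells by 3.43 (SE 0.34, edgeR adjusted p = 1.43e-05) and lower in ML than in basal cells by -2.71 (edgeR adjusted p = 5.79e-05). Maml3 was lower in LP than in ML cells by -1.76 (SE 0.27, edgeR adjusted p = 0.000434). Dtx4, a Deltex protein, was higher in ML than in basal cells by 2.17 (SE 0.40, edgeR adjusted p = 0.000784).

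**Figure D5:**
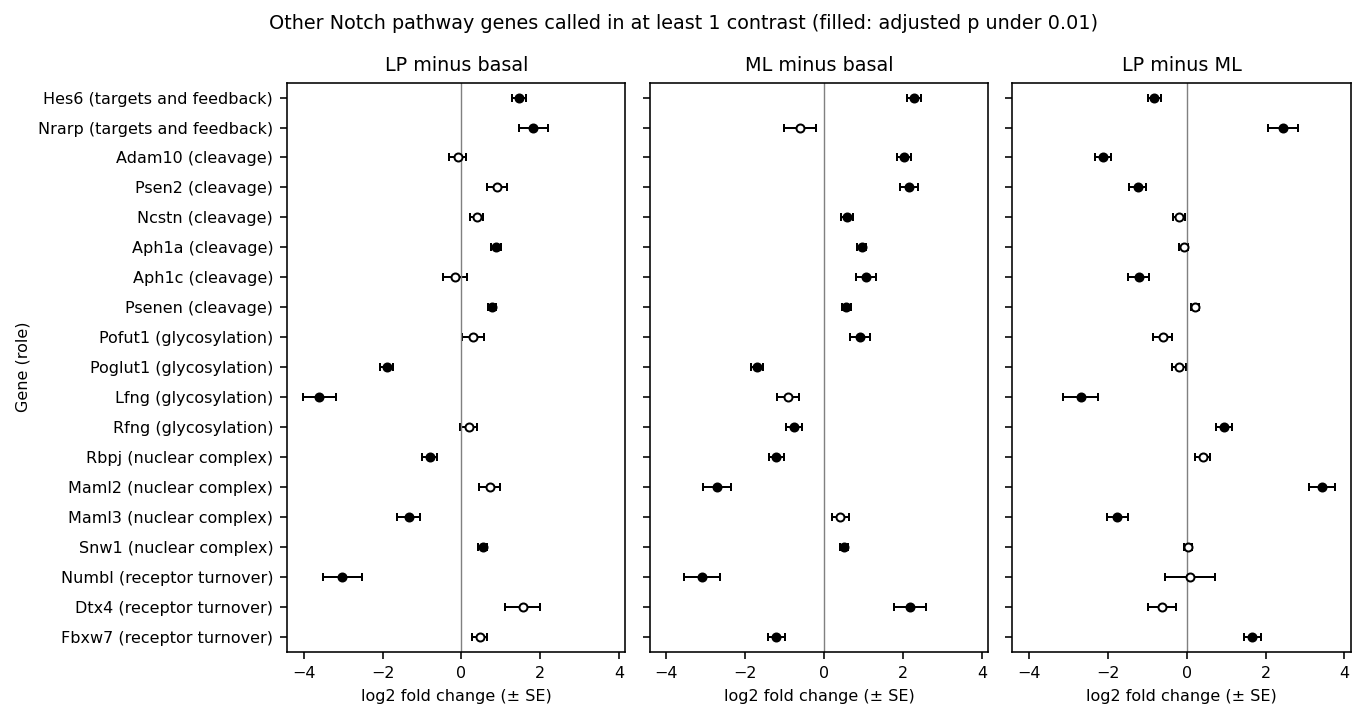
Log2 fold change between lineages (horizontal axis) for the 19 other pathway genes called in at least 1 contrast, ordered by role, with standard errors and filled points where the edgeR adjusted p was under 0.01. Nrarp lies toward LP cells in both contrasts that include them, at 1.82 and 2.43, and Lfng lies away from them, at -3.61 and -2.69.

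Between diestrus and estrus, 2 of the 22 list genes with 10 CPM passed 2-fold in basal cells (Nrarp and Dtx3), where 11.0% of all genes did. In LP cells 2 of 22 passed (Mib2 and Numb), against 12.8% of all genes, and in ML cells 2 of 23 (Aph1c and Mib2), against 7.32%. All were lower in diestrus. Nrarp in basal cells was at 10.7, 17.7 and 5.01 CPM in puberty, estrus and diestrus, an order that it shared with Dll1 there, and its log2 ratio of diestrus to estrus was -1.83 (95% interval -2.53 to -1.17). In LP cells, where Hey1 was lower in diestrus, Nrarp was at 41.0, 24.3 and 44.8 CPM and thus had its lowest value in estrus. No list gene passed 2-fold between puberty and both adult libraries in any lineage.

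Upstream sequence was available from RefSeq, on GRCm38.p6, for all receptors and ligands. It was searched over the 250 bases before each start in RefSeq for the core RBPJ motif TGGGAA and for its longer form GTGGGAA, which contains it, on both strands. None of the 8 windows of the 7 receptor and ligand genes held either motif. RefSeq starts differ from the GENCODE positions given above: the windows of Notch1 and Jag2 and 1 of those of Dll1 lie wholly inside the GENCODE bounds of their gene, so these windows are not all upstream of every transcript. Of 32851 windows of all genes, 21.6% held TGGGAA and 5.42% held GTGGGAA. Among the other pathway genes, 12 of 43 windows held TGGGAA (27.9%), from 11 of 32 genes. Of the genes described above, Lfng, Poglut1, Psen2, Maml2 and Maml3 were among these, and Nrarp, Hes6, Adam10 and Numbl were not. Of the 43 windows, 16 lay wholly inside the GENCODE bounds of their gene. The windows of Psen2 and Maml2 that held the match were among them, and the other window of each gene held none. Windows of Hey1, Heyl and Hes1 were not analysed here. The windows of the receptors Notch1 and Notch3, which hold no match, and of Lfng, which holds 2, are shown, 5′ to 3′ on the strand of the gene, with TGGGAA or its reverse complement in capitals where it occurs.
Notch1, chr2:26503823-26504072, minus strand: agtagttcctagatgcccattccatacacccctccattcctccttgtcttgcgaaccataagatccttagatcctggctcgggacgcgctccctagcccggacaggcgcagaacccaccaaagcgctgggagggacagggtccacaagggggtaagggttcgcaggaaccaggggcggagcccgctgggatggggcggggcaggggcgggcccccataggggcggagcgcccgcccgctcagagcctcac
Notch3, chr17:32166891-32167140, minus strand: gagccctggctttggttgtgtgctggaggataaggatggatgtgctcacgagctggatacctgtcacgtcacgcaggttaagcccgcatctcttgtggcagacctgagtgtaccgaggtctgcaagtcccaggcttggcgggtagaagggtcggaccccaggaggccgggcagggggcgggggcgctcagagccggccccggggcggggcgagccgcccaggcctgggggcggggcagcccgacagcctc
Lfng, chr5:140607091-140607340, plus strand: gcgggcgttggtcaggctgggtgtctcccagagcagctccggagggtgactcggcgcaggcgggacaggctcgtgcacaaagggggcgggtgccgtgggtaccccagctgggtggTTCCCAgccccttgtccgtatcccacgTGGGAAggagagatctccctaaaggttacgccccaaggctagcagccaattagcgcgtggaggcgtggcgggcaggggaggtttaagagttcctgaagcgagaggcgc
In Lfng the matches began 135 and 108 bases before the RefSeq start. The windows of Notch1, Notch3 and Lfng were 66.0%, 68.8% and 66.0% G or C, against a median of 52.4% over all windows. A match is a description of letters in this window and not a binding site.

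Genes with the most similar pattern to each member were found by Pearson's r of log2(CPM + 1) over the 9 samples of lineage and library, among 7082 genes with a mean of at least 10 CPM. These samples share 3 libraries and are mostly ordered by lineage, so high values are common. Genes that had also served as signatures to assign cells to a lineage were not left out. For Notch1 they were Plet1 (r = 0.991), itself 1 of the LP signature genes, Rmdn1 (0.980) and Mapkapk3 (0.979). For Notch3 they were Nupr1 (0.993), Cd82 (0.989) and Tmc4 (0.988). Dll1 was most like Ext2 (0.993), Ctnnal1 (0.993) and Eln (0.992), of which the last 2 are basal signature genes. Hey1 was most like C530043A13Rik (0.994), Ccrl2 (0.991) and Rftn1 (0.989), all of them LP signature genes, and genes most like Hes1 included Elf3 (0.986) and Anxa2 (0.985).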

How the data were processed

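Per the labels, the authors captured cells on the 10X Genomics Chromium system with the 3′ protocol, sequenced on a NextSeq 500 and made the deposited counts with Cell Ranger 2.0 on mm10. Each deposited count is a number of molecules per gene and cell, without normalization. Barcodes were used as deposited, with no further filter and no doublet caller. The members, the lists and the classification markers were chosen with earlier results of these data known.

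Cells were assigned by up to 100 signature genes per lineage, the same for all libraries. Signatures were derived from cells chosen by 8 markers per lineage, and each gene had to be at least 2-fold higher in its lineage in every library. Pathway, cell cycle, mitochondrial and ribosomal genes were excluded. Cells between lineages were set aside as intermediate or mixed, and cells with at least 3 of 5 endothelial, fibroblast, immune or pericyte markers and less keratin than marker counts were left out (endothelial and fibroblast cells were found, 9 and 32). Counts were summed into 9 samples and fitted with edgeR 4.0.16 in R 4.3.3 (TMM, filterByExpr, library block, quasi-likelihood F test, Benjamini-Hochberg, threshold 0.01). Standard errors were obtained from the fold change and its F statistic. The fit was tested on simulated data. Stage ratios had exact conditional intervals. Ratios need more than 3 counts in each sample.

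All members are named. Other pathway genes are named if among the 5 largest called changes of a contrast or past 2-fold between the adult phases. Intervals and floors cover counting error only. Positions came from GENCODE M21, in which 27645 of 27998 IDs matched. Alternatives were DESeq2 1.42.0 and its size factors, no filter, no block, other thresholds, leaving out each library, the second pubertal table, other cell assignments, and leaving out cells of the highest totals or in cycle. Other samples were not analysed here. A similar gene and a sequence chosen by these rules are not reported here.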

Additional observations from a re-analysis of the deposited data

Results flagged for a closer look

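For 3 genes the ratio between stages had opposite signs in a pair of lineages, with both counting intervals away from 0. The difference between lineages was not tested in any of them, since each stage had 1 library. Hes1 had a log2 ratio of puberty to estrus of 0.38 in ML and -0.57 in basal cells. Without TMM scaling these were 0.08 and -0.72. Nrarp had a log2 ratio of diestrus to estrus of 0.88 in LP and -1.83 in basal cells, and of puberty to estrus of 0.76 in LP and -0.72 in basal cells, and it kept all 4 signs without TMM scaling. Psenen, a subunit of γ-secretase, had a log2 ratio of puberty to diestrus of 0.14 in LP and -0.17 in basal cells, and the LP value was -0.20 without TMM scaling.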

How the results depend on the processing

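The number of members called was 7 for LP against basal cells and 6 for ML against basal cells, and was 5 to 7 and 4 to 6 under the alternatives listed among the processing steps. For LP against ML cells it was 4, 5 without the filter on low counts, and 2 to 3 when each library was left out, with 2 (Hey1 and Notch1) without puberty. The log2 fold change of Jag2 in LP against ML cells was -4.71 to 0.046 when each library was left out, and changed sign without puberty, since both lineages then had no count. Of the members past 2-fold between diestrus and estrus, 2 became 1 (Dll1 in basal cells) with plain CPM, with the mean over cells, without cycling cells and with thinned cells. Hey1 then had log2 ratios of -0.98, -0.73, -0.79 and -0.67. Between puberty and both adult libraries, 0 became 1 (Notch1 in basal cells) with the second or the summed pubertal tables, with marker genes alone and with Leiden clusters. Shares moved with depth. Thinned to 1000 counts, Dll1 was counted in 12.8%, 17.9% and 8.48% of basal cells of puberty, estrus and diestrus, and Hey1 in 9.04%, 25.4% and 13.9% of LP cells. Without thinning the shares were 27.0%, 35.8% and 23.6% for Dll1 and 24.8%, 48.4% and 31.6% for Hey1. No paired analysis was possible because the stage groups share fewer than 2 replicate numbers. The lineage contrasts were compared within library, through the block for library.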
